A study of Mus musculus with 2 samples.

Results

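The cells described here are Gad-positive, Dlx-negative neurons, a set drawn to hold the GABAergic neurons of midbrain, hindbrain and spinal cord while leaving out those of the forebrain. A cell barcode was taken when it held at least 1 unique molecular identifier (UMI, a counted RNA molecule) of Gad1 or Gad2 and a UMI of at least 2 of 9 neuron genes (Tubb3, Dcx, Stmn2, Elavl3, Elavl4, Map2, Gap43, Mapt and Rtn1). It also had to hold 0 UMIs of Dlx1, Dlx2, Dlx5, Dlx6, Dlx6os1, Slc17a6 and Pdgfra. The rule took 945 of 37628 barcodes, 285 in the control library and 660 in the neural tube defect (NTD) library. After 159 barcodes that a doublet caller marked as likely pairs of cells were left out, 222 control and 564 NTD cells remained, 786 of 32187 kept barcodes. The cells were thus chosen by their own counts of these genes, so the levels of these genes are a description and support nothing else here.

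RNA was counted in single cells of mouse embryonic brain with the 10x Chromium 3' v3 chemistry, in 1 control library and 1 NTD library. The NTD embryos came from dams kept on a low-folate diet and injected intraperitoneally with methotrexate (MTX), a folate antagonist, at 1.5 mg/kg on gestational day 7.5. The control dams received normal saline, and their diet is not given in the sources used here. Neural tube closure was scored at embryonic day 9.5 to 10.5, and embryos of the NTD group were smaller and delayed, mainly with hindbrain malformation and spina bifida. The stage at dissociation is not given either, nor are the strain, sex and number of embryos pooled. With 1 library per group no test across embryos exists, so no p-value is given. All intervals are 95% intervals of counting error alone, and a difference between libraries cannot be told apart from a difference between the NTD and control groups.

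Gad1 and Gad2 encode the glutamate decarboxylases that make GABA, and in the forebrain the neurons that use them arise under Dlx factors. Behind the forebrain other factors take that role. In the dorsal spinal cord and hindbrain Pax2, Pax8, Lhx1 and Lhx5 mark inhibitory interneurons, many of which also use glycine and take it up through the transporter Slc6a5, while in the midbrain, the rostral hindbrain and the V2b interneurons of the ventral cord Gata2, Gata3, Tal1, Tal2 and the cofactors Zfpm1 and Zfpm2 are characteristic. Hox genes record position along the hindbrain and cord and are not expressed in midbrain neuroepithelium.

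The libraries held 18572 (control) and 19056 (NTD) barcodes with 50741121 and 55524355 UMIs. Median depth of the Gad-positive, Dlx-negative neurons was close in both, 2646.5 UMIs in control and 2656 in NTD, and their UMIs summed to 670220 and 1728508. Ribosomal protein genes took 7.11% of these UMIs in control and 12.2% in NTD, and 73 of 81 measured ribosomal genes (at least 40 UMIs over both libraries) were at least 1.5-fold higher in NTD, where 11.9% of all measured genes were. In neurons with Slc17a6, the vesicular glutamate transporter, the ribosomal share was 6.84% and 11.7%, so this difference was not confined to the inhibitory set. The libraries shared 105 barcode sequences, of which 2 control and 5 NTD cells were in the set.

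The rule admits barcodes of uncertain identity. In the control library the share of barcodes with a Gad1 or Gad2 UMI was 0.953% among those with 0 neuron genes and 1.05% with 2, then 6.60% with 4 and 13.1% with 6. The NTD library started higher, at 1.56% with 0 and 2.99% with 2 neuron genes, reached 6.85% with 4 and 19.7% with 6. Non-neuronal cells were not free of Gad UMIs. Barcodes with at least 3 of 6 mesenchyme genes held a Gad UMI in 1.63% (control, median depth 2950 UMIs) and 5.55% (NTD, 3256 UMIs), and those with at least 3 of 6 endothelial genes in 2.27% (2614 UMIs) and 2.60% (3124 UMIs). At least 2 neuron genes, the other condition, were met by 49.4% of the control and 78.0% of the NTD mesenchyme barcodes. Among all barcodes with at least 2 neuron genes the set was 2.75% (control) and 4.29% (NTD). These shares leave out barcodes with a Dlx, Slc17a6 or Pdgfra UMI, while the mesenchyme shares count any Gad UMI, so the 2 are unlike measures. Before that exclusion, 324 of 8084 control and 994 of 13145 NTD barcodes with at least 2 neuron genes held a Gad UMI. How much of the set, above all in NTD, carries Gad UMIs of free RNA was not tested.

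**Figure D1:**
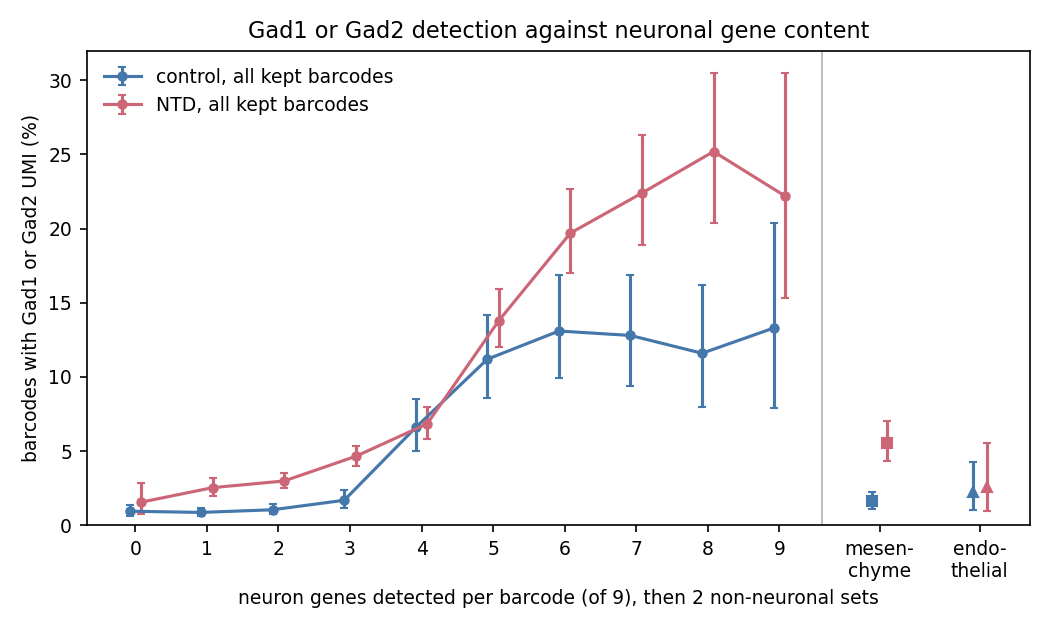
Share of kept barcodes (y axis, percent) with at least 1 Gad1 or Gad2 UMI against the number of the 9 neuron genes detected (x axis), with the mesenchyme and endothelial barcodes at the right; bars are exact 95% binomial intervals. The share stays under 3% up to 2 neuron genes in both libraries and reaches 6.60% (control) and 6.85% (NTD) at 4.

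A stricter set, with at least 2 Gad UMIs, was therefore followed beside the whole. It held 115 control cells (51.8%) and 219 NTD cells (38.8%), and among mesenchyme barcodes 2 Gad UMIs were found in 0.432% (control) and 0.939% (NTD). Of the cells with 2 or more Gad UMIs, 91.3% in control and 86.3% in NTD held at least 4 neuron genes, against 65.4% and 52.5% of the cells with 1. At the edge of the rule, 107 control and 345 NTD cells had exactly 1 Gad UMI, and 28 control and 59 NTD barcodes were left out for having only 1 neuron gene. A Dlx UMI kept out 64 of 324 otherwise eligible control barcodes and 355 of 994 NTD barcodes, Slc17a6 kept out 13 and 54, and Pdgfra kept out 34 and 72.

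By this rule the cells made up 1.43% of kept control barcodes (interval 1.25 to 1.63) and 3.39% of kept NTD barcodes (3.12 to 3.67), a difference of 1.96 percentage points (1.63 to 2.29). The size of the difference depended on how strictly Gad expression was asked for. With at least 2 Gad UMIs the shares were 0.741% and 1.31%, 0.574 points apart. The comparison sets were also larger shares of the NTD library: GABAergic neurons with a Dlx UMI were 0.367% of control and 1.87% of NTD barcodes, and Slc17a6 neurons were 2.36% and 4.39%. A share of barcodes cannot be told apart from how much of each region and how many non-neuronal cells entered each library.

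Of the genes that made the set, Gad1, on chromosome 2 (70553072 to 70602014, GRCm38), was found in 54.5% of control and 42.9% of NTD cells at 321 and 217 UMIs per 1000000 (CPM). Gad2, also on chromosome 2 (22622205 to 22693874), was found in 68.9% and 77.5% at 404 and 433 CPM. Gad1 was thus 1.48-fold lower in NTD and Gad2 about equal. Among the neuron genes Tubb3, a neuronal tubulin, was detected in 78.8% and 84.0% of cells, and Stmn2, which regulates growing microtubules, stood at 379 and 374 CPM. Map2 and Mapt, microtubule proteins of dendrite and axon, were lower in NTD, at 985 against 654 and 213 against 120 CPM.

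Of the 6 position markers Pax2 had the largest difference in the share of cells. Pax2, a paired-box factor on chromosome 19 (44756045 to 44837871), had a UMI in 91 of 222 control cells (41.0%) and in 81 of 564 NTD cells (14.4%), 26.6 points fewer (interval of the difference -33.7 to -19.6). Its level was 485 CPM in control (434 to 541) and 106 CPM in NTD (91.1 to 122), which is 4.58-fold lower. In Slc17a6 neurons, which mostly lack it, a Pax2 UMI was present in 4.37% of control and 3.01% of NTD cells at median depths of 2906 and 2844.5 UMIs, so the signal in the inhibitory set lies above that background in both libraries. After random thinning of every cell to 1500 UMIs, with 16 control and 0 NTD cells too shallow to enter, the shares were 33.5% and 9.93%. With at least 2 Gad UMIs Pax2 was found in 58 of 115 control and 46 of 219 NTD cells.

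Pax8, the close relative of Pax2 in the same interneurons, followed it. It was detected in 40 control cells (18.0%) and 20 NTD cells (3.55%), with 122 and 15.6 CPM, a 7.83-fold difference. Among cells without a Hox UMI, Pax8 was found in 1 of 46 control and 18 of 490 NTD cells, a difference of 1.50 points (-7.76 to 4.23). Lhx1, a LIM-homeodomain factor of inhibitory interneurons, was found in 42.8% and 29.3% of cells at 257 and 163 CPM, and its partner Lhx5 in 32.0% and 20.7% at 146 and 87.9 CPM. The intervals of these differences were -21.0 to -6.11 points for Lhx1 and -18.4 to -4.46 points for Lhx5, and the Slc17a6 neurons held Lhx1 in 10.1% and 9.84% and Lhx5 in 7.65% and 8.06%. Among cells with at least 2 Gad UMIs the intervals of both differences included 0, with Lhx1 at 58.3% and 47.5% and Lhx5 at 39.1% and 31.5%.

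Tfap2b, an AP-2 factor of dorsal interneurons that was taken as a marker of these cells, did not set them apart. A UMI was present in 17.1% of control and 11.5% of NTD cells and in 15.6% and 13.9% of the Slc17a6 neurons. Its level in the inhibitory set was 133 and 60.7 CPM, and among cells without a Hox UMI the log2 ratio of Tfap2b was 0.95 with an interval of -0.44 to 3.47. The 4 other markers, Gad1, Gad2, Pax2 and Lhx5, were above the Slc17a6 neurons in both libraries, Gad1 and Gad2 because the rule required them in the set and excluded them from that comparison.

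The zinc-finger factors Gata2 and Gata3, which specify midbrain GABAergic neurons and V2b cells, were found at similar rates in both libraries over the whole set. A Gata2 UMI was present in 6.31% and 6.21% of cells, and Gata3, on chromosome 2 (9857078 to 9890034), in 10.8% and 12.9%. The differences were -0.101 points (-4.45 to 3.31) for Gata2 and 2.13 points (-3.26 to 6.71) for Gata3. Slc17a6 neurons held Gata2 in 0.546% and 1.09% and Gata3 in 0.273% and 1.91%. Non-neuronal barcodes held more: Gata2 was found in 1.92% and 6.31% of mesenchyme and 4.53% and 6.06% of endothelial barcodes, and Gata3 in 2.93% and 6.74% and in 5.04% and 8.66%. The Gata2 share of the NTD set was thus at the level of the deeper non-neuronal barcodes, while after thinning to 1500 UMIs it was 4.43% in the set against 2.47% and 1.73%. Gata2 UMIs also count towards the Gata branch described below. With at least 2 Gad UMIs, Gata3 was found in 15 of 115 control and 55 of 219 NTD cells, 12.1 points more in NTD with an interval that starts at 3.01, but after thinning the difference was 5.35 points with an interval of -2.70 to 12.1. Gata2 was found in 9 and 24 of these cells, and Tal1, a partner of Gata factors, in 16.5% and 16.4%. Tal1 was also present in 19.4% and 19.5% of endothelial barcodes, where it is normally expressed, so the Tal1 UMIs of a cell do not by themselves place it among neurons.

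**Figure D2:**
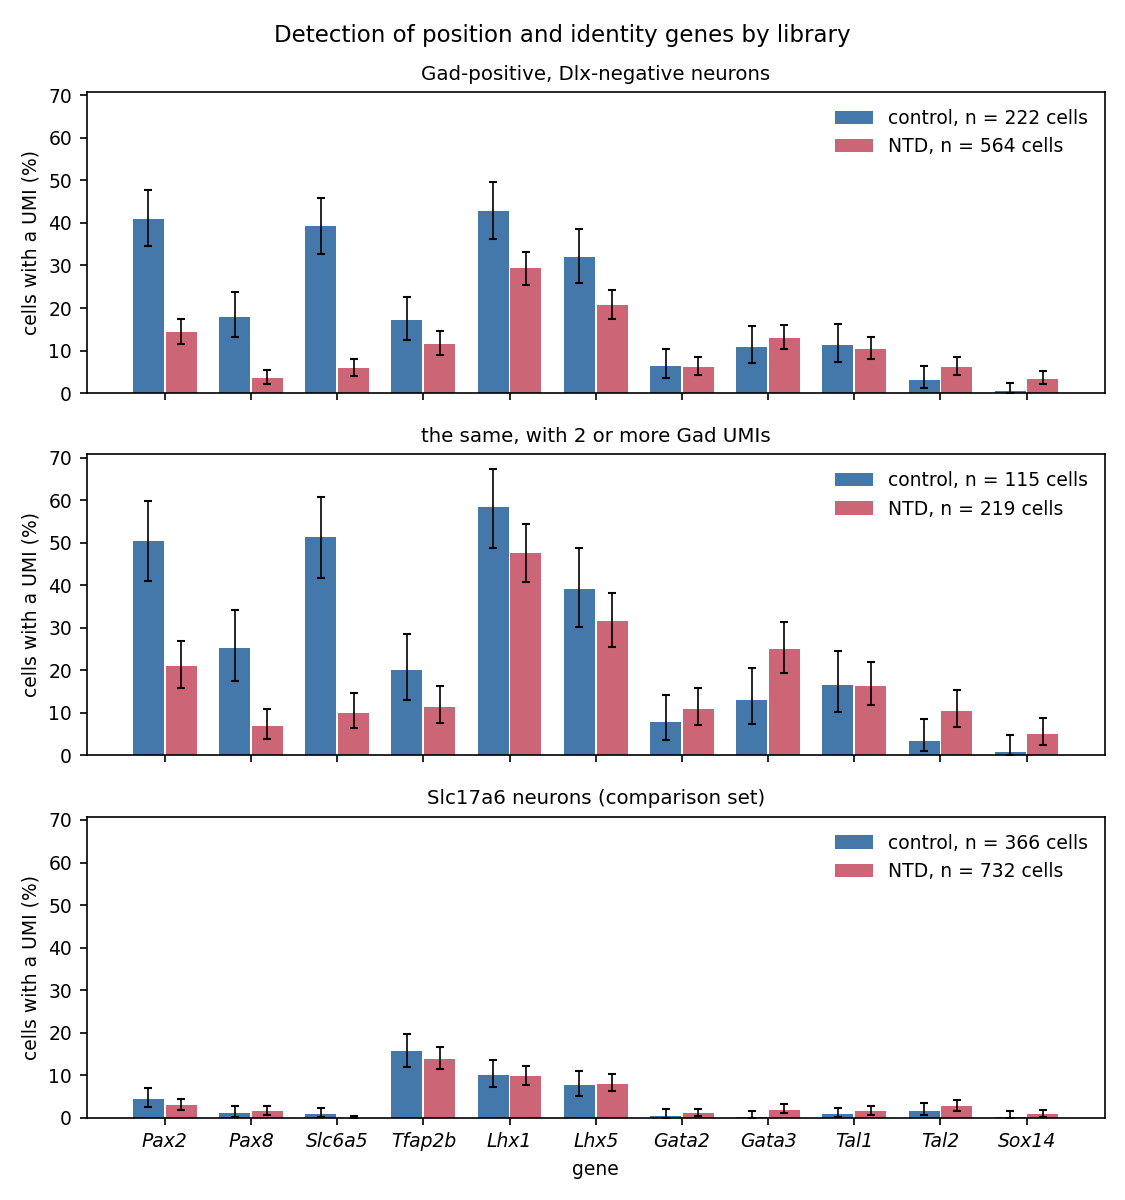
Share of cells with a UMI (y axis, percent) of 11 transcription factor and transporter genes (x axis) in the control and NTD libraries, for the whole set, its cells with 2 or more Gad UMIs, and Slc17a6 neurons; bars are exact 95% binomial intervals. Pax2, Pax8 and Slc6a5 are lower in NTD in both upper panels, and Gata3 is found in 15 of 115 control and 55 of 219 NTD cells in the middle panel.

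Pax and Gata genes were seldom found in the same cell. A Gata3 UMI was found in 2 of 91 Pax2-positive control cells and 2 of 81 in NTD, against 16.8% and 14.7% of the Pax2-negative cells. Pax8 was found in 36.3% of Pax2-positive and 5.34% of Pax2-negative control cells, and in 18.5% and 1.04% in NTD. Gata2-positive cells held Tal1 in 8 of 14 (control) and 14 of 35 (NTD) cases, against 8.17% and 8.32% of the others. These are shares of cells within a library, and cells of a library are not replicates.

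The set was accordingly divided into cells with UMIs of Pax2 or Pax8 only and cells with UMIs of Gata2, Gata3, Tal1, Tal2 or Sox14 only, a division chosen after these values were seen. The Pax branch held 94 control cells (42.3%, 35.8 to 49.1) and 81 NTD cells (14.4%, 11.6 to 17.5). The Gata branch held 44 (19.8%, 14.8 to 25.7) and 155 (27.5%, 23.8 to 31.4). UMIs of both groups occurred in 4 and 5 cells, and 80 control (36.0%) and 323 NTD cells (57.3%) had neither. Cells with neither were 53.3% and 73.6% of those with 1 Gad UMI.

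The Pax branch was the larger of the branches in control and the smaller in NTD, and so it was among cells with at least 2 Gad UMIs. There the Pax branch was 62 of 115 control cells (53.9%) and 45 of 219 NTD cells (20.5%), while the Gata branch was 27 (23.5%) and 101 (46.1%). As a share of all kept barcodes, the Pax branch of these stricter cells was 0.399% in control (0.306 to 0.512) and 0.270% in NTD (0.197 to 0.361), and the Gata branch was 0.174% (0.115 to 0.253) and 0.606% (0.494 to 0.736). Over all cells of the set the same shares were 0.605% and 0.486% for the Pax branch and 0.283% and 0.931% for the Gata branch. The intervals of the Pax branch overlapped between the libraries and those of the Gata branch did not. Nor did those of cells with neither, at 0.515% (0.409 to 0.641) and 1.94% (1.74 to 2.16) over all cells of the set. The larger share of the Gata group in NTD was not particular to the set. Slc17a6 neurons with UMIs of the Gata group only were 0.0580% of kept control barcodes (0.0265 to 0.110) and 0.324% in NTD (0.244 to 0.423). Among GABAergic neurons with a Dlx UMI such cells were 0.0129% (0.00156 to 0.0465) and 0.186% (0.126 to 0.264). Median depths within the branches were 2562.5 and 2883 UMIs (Pax) and 2753.5 and 2777 UMIs (Gata).

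**Figure D3:**
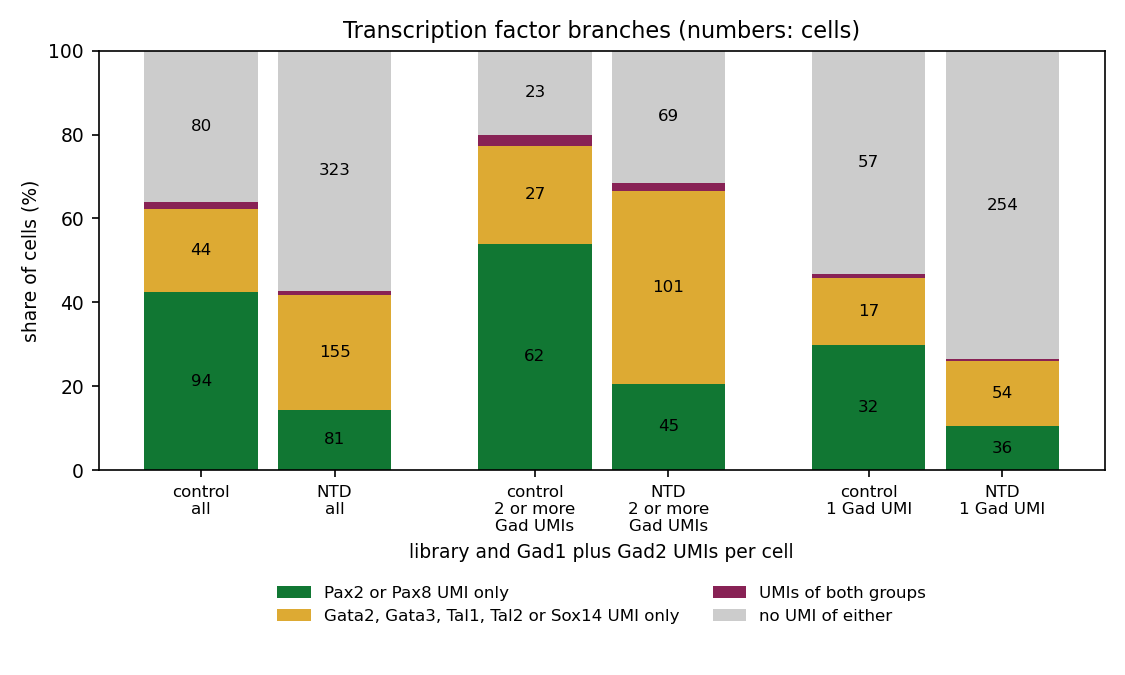
Composition (y axis, percent of cells; numbers are cells) of the set in each library by detected transcription factors, for all cells, cells with 2 or more Gad UMIs and cells with 1. Among cells with 2 or more Gad UMIs the Pax branch is 53.9% of control and 20.5% of NTD, and the Gata branch 23.5% and 46.1%.

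Genes that took no part in the division differed between the branches in both libraries. Zfpm2, the Gata cofactor on chromosome 15 (40655035 to 41104592), stood at 1843 CPM in the control and 1459 CPM in the NTD Gata branch, against 98.9 and 115 CPM in the Pax branch. It was detected in 84.1% and 73.5% of Gata-branch cells, and over the whole set Zfpm2 reached 503 CPM (control) and 588 CPM (NTD). Robo3, the receptor that lets commissural axons cross the midline, on chromosome 9 (37415669 to 37433246), showed the opposite distribution. It stood at 740 CPM in the control and 683 CPM in the NTD Pax branch, in 51.1% and 54.3% of cells, and had 0 UMIs in the 44 control and 6 UMIs in the 155 NTD Gata-branch cells. Over the whole set Robo3 was 2.54-fold lower in NTD (361 and 142 CPM), while within the Pax branch the ratio was 1.08-fold, with a log2 ratio of -0.11 (-0.42 to 0.19), and among cells without a Hox UMI the log2 ratio of Robo3 was 0.46 (-0.35 to 1.55).

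St18, a zinc-finger factor, was highest in the Gata branch, at 1036 CPM (control) and 360 CPM (NTD), and was 311 and 183 CPM in the Pax branch. In Slc17a6 neurons it was 122 and 150 CPM. St18 thus was lower in NTD in each branch, by 2.88-fold and 1.70-fold.

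Of the genes of inhibitory transmission, the glycine transporter had the lowest ratio. Slc6a5, on chromosome 7 (49910146 to 49963856), which returns glycine to the terminals that release it, had a UMI in 87 of 222 control cells (39.2%) and 33 of 564 NTD cells (5.85%). Its level was 281 CPM in control (242 to 324) and 38.8 CPM in NTD (30.0 to 49.2), 7.24-fold lower. Slc17a6 neurons had it in 0.820% of control cells and in 0 of 732 NTD cells, which, at 3 counts of the total, allows a share of cells with a UMI of up to 0.410%. After thinning to 1500 UMIs the shares were 32.5% and 3.90%, and with at least 2 Gad UMIs 51.3% and 10.0%.

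The difference in Slc6a5 was also present inside the Pax branch. There 64.9% of control and 25.9% of NTD cells had a UMI, at 491 CPM (411 to 581) and 163 CPM (117 to 221), 3.01-fold lower. Counted from Pax2, Slc6a5 was found in 61.5% of Pax2-positive and 23.7% of Pax2-negative control cells, and in 28.4% and 2.07% in NTD. In the Gata branch it had 22 UMIs in control and 3 in NTD. A Hox UMI was present in 92.6% of the control and 23.5% of the NTD Pax branch, and Slc6a5 was lower in NTD with and without one. In cells without any Hox UMI it was found in 15.2% of 46 control and 4.69% of 490 NTD cells, and in cells with one in 45.5% of 176 and 13.5% of 74. A Hox UMI was also found in 52.6% of control and 12.2% of NTD GABAergic neurons with a Dlx UMI. This split thus does not match cells by position, and the part of position in the Slc6a5 difference was not tested.

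The other genes of inhibitory transmission were lower in NTD by less or about equal. Of 9 measured genes of GABA and glycine synthesis and transport, 3 were at least 1.5-fold lower and 0 higher, with a median log2 ratio of -0.57, where 15.4% of all measured genes were that much lower and the overall median was -0.10. Besides Slc6a5 these were Abat, the GABA transaminase (59.7 and 27.2 CPM), and Slc38a1, a glutamine carrier (221 and 141 CPM). Gad1 and Gad2, genes of the rule, were among the 9 but not among those lower. The median of this list is therefore a description only. Slc12a5, the chloride exporter KCC2, had 15 and 18 UMIs, too few to be measured by the minimum of 40 UMIs over both libraries. Slc32a1, the vesicular carrier of GABA and glycine, had 14 and 31 UMIs (20.9 and 17.9 CPM) with a log2 ratio whose interval included 0. It and Gphn, the scaffold protein gephyrin at 372 and 253 CPM, were chosen for naming after their values were seen.

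Of the 6 measured receptor genes 2 were lower in NTD, where 15.4% of all genes were, and the median log2 ratio was -0.54, or -0.30 among cells without a Hox UMI. Relative to genes of like span (genomic length) the median was -0.33, and with at least 2 Gad UMIs it was -0.27. The receptor list was not lower in the set alone. In Slc17a6 neurons 6 of 10 measured receptor genes were lower, where 1412 of 10111 measured genes were, with a median of -0.62. Glra1, a glycine receptor subunit, had 112 UMIs in control and 45 in NTD (167 and 26.0 CPM), 6.42-fold lower, and in the Pax branch it was 234 and 59.6 CPM. In Slc17a6 neurons Glra1 was lower too, at 110 and 26.8 CPM, 4.10-fold. Unlike Slc6a5, Glra1 was thus not confined to inhibitory cells. Glrb, its partner subunit, was 29.8 and 19.7 CPM with a log2 ratio of -0.62 (-1.44 to 0.27).

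**Figure D4:**
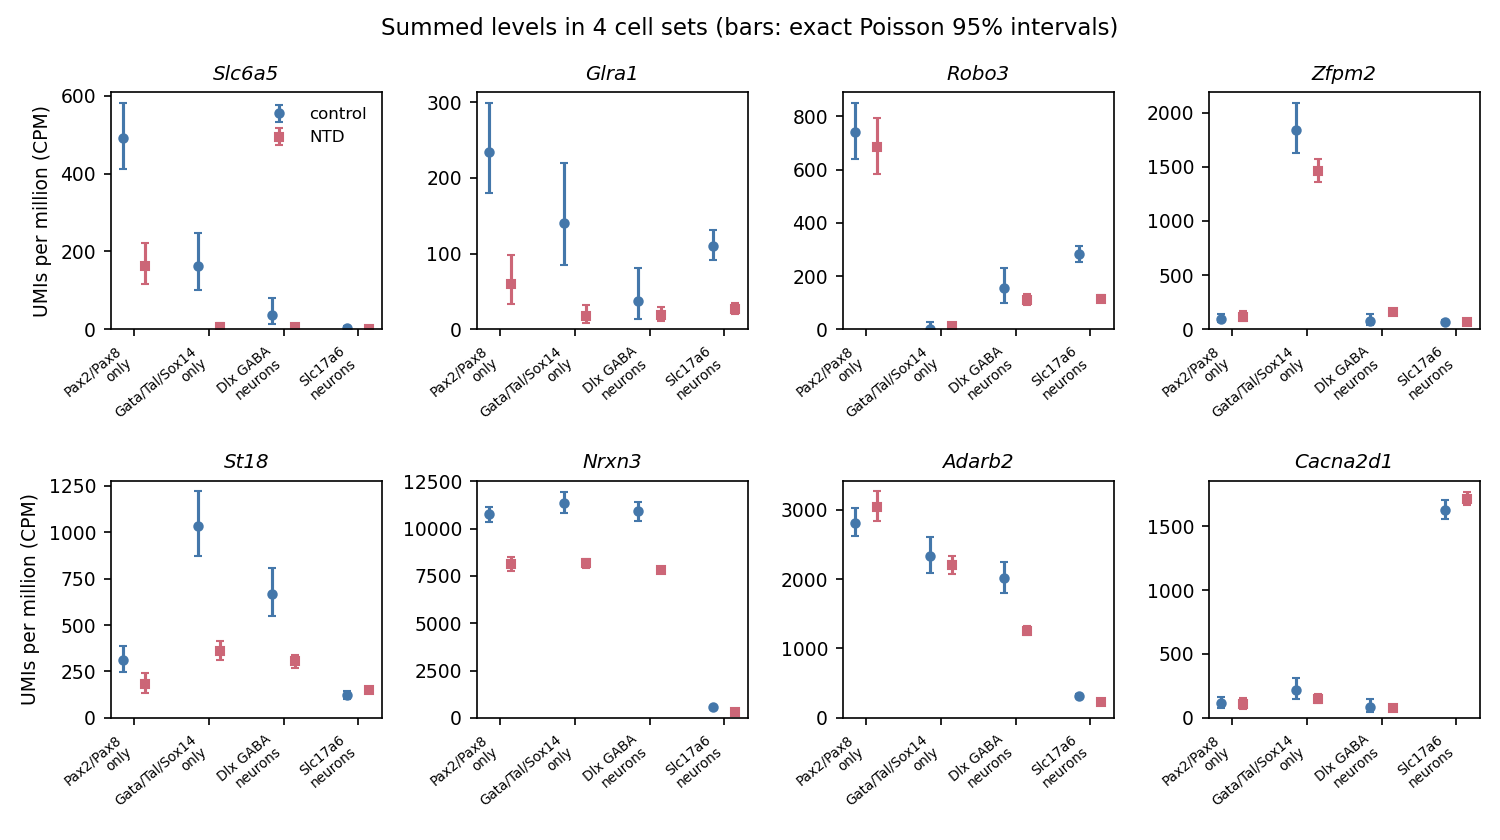
Levels (y axis, CPM of the summed cells) of 8 genes in the Pax branch, the Gata branch, GABAergic neurons with a Dlx UMI and Slc17a6 neurons (x axis) of each library; bars are exact Poisson 95% intervals. Zfpm2 is highest in the Gata branch (1843 and 1459 CPM), Robo3 in the Pax branch (740 and 683 CPM), and Slc6a5 is lower in NTD inside the Pax branch (491 and 163 CPM).

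Against Slc17a6 neurons, and among genes that reached 50 CPM, those with the highest ratios in both libraries were, besides Slc6a5, Gata3, Pax2, Zfpm2 and Tal1, the synaptic adhesion gene Nrxn3 and Adarb2, an RNA-binding protein known from cortical interneurons. Nrxn3 was at 8546 CPM in the set and 559 CPM in Slc17a6 neurons of the control library, 15.3-fold higher, and at 5255 and 301 CPM in NTD, 17.5-fold. Adarb2 was 7.17-fold higher in control (2257 and 315 CPM) and 7.86-fold in NTD (1737 and 221 CPM). Both genes were also high in GABAergic neurons with Dlx, Nrxn3 at 10912 and 7815 CPM and Adarb2 at 2013 and 1256 CPM. Within the set Nrxn3 was 10751 and 8124 CPM in the Pax branch and 11379 and 8170 CPM in the Gata branch, a smaller difference than that between the libraries. Cacna2d3, a calcium channel subunit, and Lrtm1, which lies inside its span on the opposite strand, were also on this list, as was Lhx1os next to Lhx1.

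At the other end stood genes of the excitatory cells. Cacna2d1, another calcium channel subunit, was at 184 CPM in the set and 1630 CPM in Slc17a6 neurons of control (8.88-fold lower) and at 174 and 1718 CPM in NTD (9.87-fold lower). The factors Lhx9 and Tfap2d and the surface proteins Nrn1 and Ntng2 were among the 10 lowest in both libraries, with log2 ratios from -2.91 for Lhx9 in NTD to -6.19 for Nrn1 in control. Genes of the rule were left out of this comparison. For Slc6a5 the NTD Slc17a6 neurons had 0 UMIs, so the set was at least 29.9-fold higher there, against a floor of 3 UMIs.

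Among ranked genes that reached 50 CPM in either library, the 12 lowest ratios belonged to Hox genes, transcripts antisense to them, and Afp and Rbp4, which are liver and yolk sac genes. Haemoglobin, mitochondrial genome, ribosomal protein and predicted genes and those of the rule were not ranked. Hoxc6, on chromosome 15 (102998257 to 103011881), had 51 UMIs in control and 0 in NTD cells, at least 43.8-fold lower against a floor of 3 UMIs, and Hoxc4 had 82 and 2 UMIs. With so few UMIs the log2 ratio of Hoxc4 was -6.41 with an interval of -9.79 to -4.83. Hoxb3, which starts in the hindbrain, had 155 and 23 UMIs (231 and 13.3 CPM), and Hoxb2, which reaches further forward, 23 and 22 UMIs (34.3 and 12.7 CPM). All 4 measured genes of groups 1 to 3 and all 5 of groups 4 to 13 were lower in NTD, where 15.4% of all measured genes were. Their median log2 ratios were -3.94 and -4.90. A UMI of any Hox gene was found in 79.3% of control and 13.1% of NTD cells.

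The lower share of Hox-positive barcodes was found in every cell set examined. The share of barcodes with a Hox UMI was 70.8% and 12.3% in Slc17a6 neurons, 63.0% and 12.6% in endothelial and 80.2% and 15.1% in mesenchyme barcodes. In GABAergic neurons with a Dlx UMI, a forebrain type, it was 52.6% and 12.2%. A Hox UMI in a cell of either library thus does not by itself place that cell in the hindbrain or cord. Meis1 and Meis2, cofactors of Hox proteins, were lower in the inhibitory set (695 and 219 CPM, and 1784 and 844 CPM), and in Slc17a6 neurons Meis1 was 598 and 265 CPM. Of 7 measured hindbrain and spinal genes other than Hox, 2 were lower and 2 higher, where 15.4% of all measured genes were lower and 11.9% higher. The 2 higher were Irx2 and Irx3, with log2 ratios of 0.69 and 0.64 and intervals that included 0. Otx2, which marks midbrain and forebrain, had a UMI in 12.2% of control and 18.6% of NTD cells, but in Slc17a6 neurons in 4.64% and 15.3% and in endothelial barcodes in 2.77% and 11.7%, which do not normally express it.

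Among the cells without a Hox UMI, 46 in control and 490 in NTD, the difference in Pax2 was smaller. Pax2 was found in 17.4% and 12.4%, 4.94 points apart (-18.5 to 3.96). Lhx5 was found in 41.3% and 20.4% of them. The Pax branch was 15.2% and 12.7% and the Gata branch 30.4% and 29.0%. Among the cells with a Hox UMI, 176 and 74, the Pax branch was 49.4% and 25.7% and the Gata branch 17.0% and 17.6%. Within the Hox-positive cells Pax2 itself was 47.2% and 27.0%, 20.1 points lower (-31.6 to -6.91). Because a Hox UMI does not by itself place a cell in either library, these splits do not match cells by position. How much caudal tissue each dissection held was not tested.

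Over all measured genes, those with at least 40 UMIs in both libraries together, 1050 of 8852 (11.9%) were at least 1.5-fold higher in NTD and 1360 (15.4%) lower. With trimmed-mean (TMM) scaling the same counts were 1618 and 735, and the median log2 ratio went from -0.10 to 0.06, so the balance of higher and lower genes depends on the scaling. Among cells with at least 2 Gad UMIs 737 of 5387 genes (13.7%) were higher and 828 (15.4%) lower. Short genes were higher and long genes lower: the fifth of genes with the shortest span had a median log2 ratio of 0.35 and those with the longest -0.34, which touches the ribosomal, histone, synaptic and guidance genes.

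**Figure D5:**
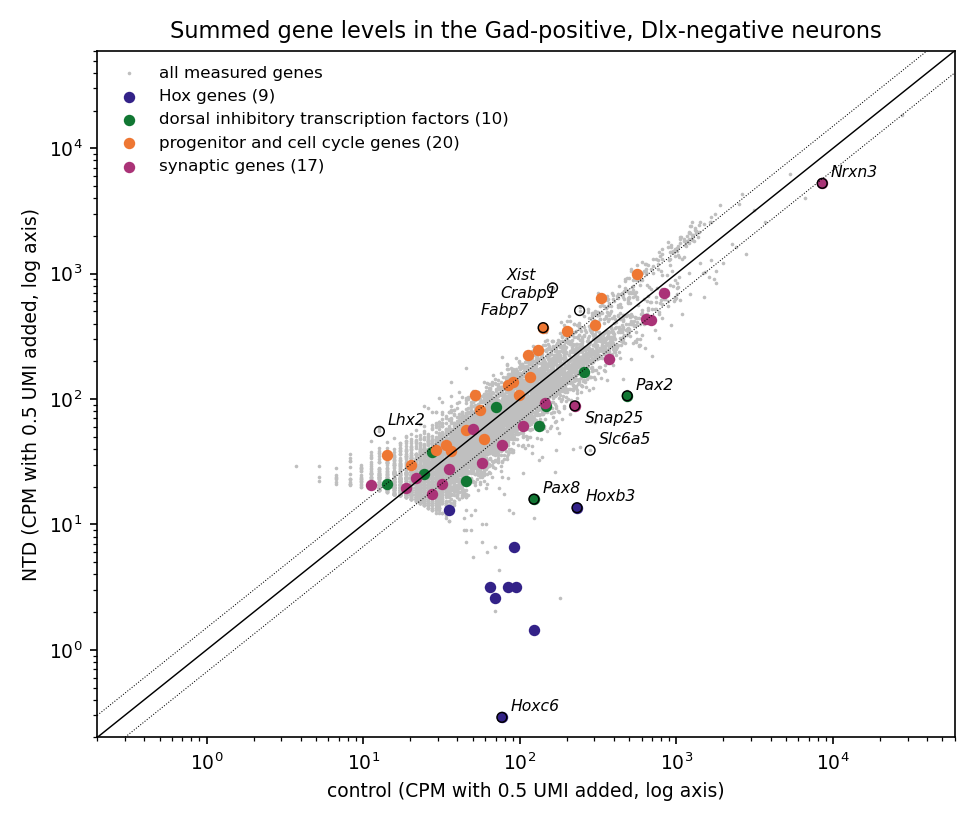
Level of each of 8852 measured genes in the control library (x axis) and the NTD library (y axis), both in CPM with 0.5 UMI added on log axes; the solid line marks equality and the dotted lines 1.5-fold. Hox genes lie far below the line, Pax2, Pax8 and Slc6a5 below it, and 10 of 20 progenitor and cell cycle genes above the upper dotted line.

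Among the ranked genes, which reached 50 CPM in 1 of the libraries, the highest ratio with 0.5 UMI added was that of Xist. This RNA of the inactive X chromosome was at 161 CPM (control) and 770 CPM (NTD), with Tsix, its antisense transcript, at 44.8 and 176 CPM. Xist was detected in 13.5% and 45.9% of the set and in 11.5% and 46.9% of Slc17a6 neurons, and the sex of the embryos is not given. Also among the 12 highest were Ndufa1, a respiratory chain subunit encoded on X (11.9 and 59.0 CPM), and the linker histone Hist1h1b (23.9 and 88.5 CPM).

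Lhx2, Tafa2 and Cdh18 had higher ratios in the inhibitory set than in Slc17a6 neurons, a contrast that was not tested. Lhx2, a LIM-homeodomain factor of forebrain and of dorsal excitatory interneurons, had 8 UMIs in control and 95 in NTD (11.9 and 55.0 CPM), 4.60-fold higher, against 107 and 131 CPM in Slc17a6 neurons. The secreted factor Tafa2 was 35.8 and 137 CPM, 3.83-fold higher, and 1.63-fold lower in Slc17a6 neurons. Cdh18, a cadherin, was 29.8 and 102 CPM, but its UMIs lay in only 11 control and 32 NTD cells (4.95% and 5.67%), so its difference was in the UMIs of few cells rather than in the share of cells. The differences of Tafa2 and Cdh18 were as large with at least 2 Gad UMIs, at log2 ratios of 2.38 and 2.14.

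Genes of forebrain identity were detected in the set, but also in non-neuronal barcodes. Their list summed to 627 CPM (control) and 776 CPM (NTD) in the set and to 656 and 771 CPM in mesenchyme barcodes. The sums were 461 and 591 CPM in endothelial barcodes and 797 and 872 CPM in Slc17a6 neurons. Of 8 measured forebrain genes 3 were higher in NTD and 0 lower, where 11.9% of all genes were higher. Their median was 0.52, and 0.45 in Slc17a6 neurons, but among cells without a Hox UMI it was -0.02, without a direction. Among midbrain and isthmus genes 2 of 9 were higher and 2 lower, where 11.9% of all genes were higher and 15.4% lower. En1, of isthmus and V1 interneurons, had 17 and 24 UMIs. Of 9 measured factors of V0 and V1 interneurons 1 was higher and 3 lower, against the same shares of all genes, with a median of 0.17. Onecut1 was 2.58-fold lower (167 and 64.8 CPM), and Dbx1, which is expressed in V0 progenitors, had 5 and 35 UMIs (7.46 and 20.2 CPM). In Slc17a6 neurons Onecut1 was 130 and 88.2 CPM and Dbx1 5.08 and 19.0 CPM.

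Of 17 measured synapse and vesicle genes 10 were lower in NTD and 1 was higher, where 15.4% of all genes were lower, and their median log2 ratio was -0.65, or -0.35 relative to genes of like span. With at least 2 Gad UMIs 4 of 12 were lower, and the median relative to like span was -0.15. Snap25, a SNARE protein of vesicle release, had a UMI in 35.6% of control and 20.4% of NTD cells, at 224 CPM (189 to 263) and 87.9 CPM (74.5 to 103). In the Pax branch it was 311 and 139 CPM, and in Slc17a6 neurons 292 and 144 CPM. Nlgn2, the adhesion protein of inhibitory synapses, was 56.7 and 30.7 CPM.

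Of 20 progenitor and cell cycle genes 10 were higher and 0 lower, where 11.9% of all genes were higher, with a median of 0.58. Fabp7, the fatty-acid binding protein of radial glia, was found in 34.7% of control and 62.9% of NTD cells at 140 and 371 CPM, 2.64-fold higher, and the Notch target Hes5 was 112 and 224 CPM. Sox2, a factor of neural progenitors, was 50.7 and 108 CPM. The summed progenitor list was 2493 and 4215 CPM in the set, 2331 and 4018 CPM in Slc17a6 neurons and 2995 and 4080 CPM in mesenchyme, so the progenitor sum was higher in NTD in all of these sets. With at least 2 Gad UMIs Fabp7 was 101 and 330 CPM. Insm1, which is switched on as progenitors become neurons, had 8 and 66 UMIs (11.9 and 38.2 CPM), but among cells without a Hox UMI its log2 ratio was -0.06 (-1.34 to 2.03).

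Of 33 measured guidance genes 14 were lower in NTD, 0 were higher and 19 passed neither way, where 15.4% of all genes were lower. Their median was -0.44, but relative to genes of like span it was -0.02. Slit3, a secreted repellent, was 454 and 145 CPM, 3.12-fold lower, and Slit2 was 927 and 393 CPM. Slit2 was 585 and 382 CPM in Slc17a6 neurons. Among markers of interneuron types, Reln, the extracellular protein reelin, was 155 and 58.4 CPM, and Crabp1, a retinoic acid binding protein, was higher, in 53.6% and 77.8% of cells at 240 and 508 CPM. Crabp1 was 322 and 545 CPM in Slc17a6 neurons.

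Genes of the pathways that the study's treatment and title name were followed as lists. Of 18 measured folate and one-carbon genes 4 were higher and 1 lower, where 11.9% of all genes were higher and 15.4% lower, with a median of 0.24. Dut, which keeps uracil out of DNA, was 212 and 363 CPM. Alkbh1, the enzyme named in the study's title, was 118 CPM (93.3 to 147) in control and 100 CPM (85.7 to 116) in NTD, a difference within counting error. Of 10 measured genes of the AlkB family and N6-methyladenine 1 was higher and 0 lower, Alkbh5, an RNA demethylase (34.3 and 54.4 CPM, log2 ratio 0.64, -0.01 to 1.39), whose ratio without Hox-positive cells was -0.44 (-1.41 to 0.90). Of 28 genes of H3K9 methylation and heterochromatin 1 was lower and 0 higher, the demethylase Kdm4b (88.0 and 37.6 CPM). Of 13 measured p53 targets 1 was higher and 1 lower, Btg2 (35.8 and 70.0 CPM) and Xpc (35.8 and 14.5 CPM), and Mdm2, a standard p53 target, was 86.5 and 62.5 CPM.

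RNA of other cell types was present in the set. The liver and yolk sac list summed to 530 CPM in control and 64.8 CPM in NTD, with 2 of 10 genes (Alb and Apoa4) at 0 in NTD, and Afp, an abundant fetal plasma protein, had 121 and 4 UMIs. In Slc17a6 neurons the sums were 492 and 54.9 CPM. Erythroid genes summed to 11087 and 12657 CPM in the set and to 10024 and 12124 CPM in Slc17a6 neurons. Endothelial markers summed to 182 and 63.1 CPM, against 3958 and 2135 CPM in endothelial barcodes, and mesenchyme markers to 457 and 350 CPM, against 1825 and 1412 CPM in mesenchyme barcodes. All 8 endothelial and all 10 mesenchyme markers were detected in both libraries. Their part in the differences above was not tested.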

How the data were processed

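Deposited UMI counts per gene and barcode were used as the authors filed them, raw, from Cell Ranger 7.0.1 per the file headers, with STAR and mm10 per the submitters' processing notes. Scrublet (scanpy 1.11.5, expected rate 0.8% per 1000 barcodes) called doublets, which were left out. UMIs of the set were summed per library, divided by the library sum to give CPM, and compared as log2 ratios of NTD over control with 0.5 UMI added. Shares have Clopper-Pearson, differences Newcombe, levels Poisson and ratios conditional binomial 95% intervals (scipy 1.17.1). A gene was measured with at least 40 UMIs over both libraries and counted as higher or lower from 1.5-fold. Named genes were those of the rule, the 6 position markers, the 12 highest and 12 lowest ratios at 50 CPM or more, up to 4 per list with the largest ratios at 20 CPM or more, and the 10 highest and 10 lowest against Slc17a6 neurons at 50 CPM or more. The rankings at 50 CPM left out haemoglobin, mitochondrial genome, ribosomal protein and predicted genes (Gm or Rik names) and genes of the rule. Sox14, Slc32a1, Gphn, Otx2, Alkbh1 and the genes at 0 were named after their values were seen, as were the branches. The members and the 33 gene lists were chosen with earlier results of these data known. Coordinates are from GENCODE M21. Alternatives were called doublets kept, stricter Gad and neuron gene minima, thinning to 1500 UMIs, TMM scaling (edgeR 4.0.16), a total without haemoglobin, mitochondrial and ribosomal genes, other UMI minima, a 2-fold threshold, and the set without Hox UMIs. Some genes and 1 alternative are not reported here. Those joining 2 Gad UMIs with another condition, and ratios relative to genes of like span, were chosen after seeing the data. The summing and interval steps were tested on simulated data. The 38 symbols borne by more than 1 gene were not named.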

Additional observations from a re-analysis of the deposited data

How the results depend on the processing

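No paired analysis was possible because each group is 1 library, and leaving out a library leaves nothing to compare. The share of Gad-positive, Dlx-negative neurons was higher in NTD under each alternative reported, by 0.574 points with at least 2 Gad UMIs, 1.09 with at least 4 neuron genes, 1.19 after thinning, 1.54 as a share of barcodes with at least 2 neuron genes and 0.459 with 2 Gad UMIs and 4 neuron genes. Without Hox-positive cells the difference was -4.94 points for Pax2 and -20.9 for Lhx5, changed sign for Gata3 (-4.33) and for Tfap2b (4.91), and with 2 Gad UMIs as well it was -5.54 for Pax2, -0.142 for Lhx1, -23.3 for Lhx5 and 2.89 for Tfap2b. Gata3 was 12.1 points higher with 2 Gad UMIs and 11.6 with 4 neuron genes added.

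Log2 ratios counted as reversed without Hox-positive cells were those of Alkbh5 (-0.44), Insm1 (-0.06), Robo3 (0.46), Tal2 (-1.13) and Tfap2b (0.95). Of the other named genes, 28 were counted as moved and 19 as the same. With 2 Gad UMIs as well, those reversed were Robo3 (1.14), Sox2 (-0.33), Tfap2b (0.68) and Tsix (-1.20), while 20 moved and 14 were the same. The median of the Gata and Tal list was -0.09 over the whole set, -0.80 after thinning, -1.10 without Hox-positive cells and -1.06 with 2 Gad UMIs as well. That of Hox groups 4 to 13 was -6.52 with 2 Gad UMIs, from 2 measured genes, of which 1 was at 0 in 1 library. The causes were not tested.

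Higher and lower genes numbered 1618 and 735 with TMM scaling, 689 and 797 after thinning, 636 and 635 at 100 UMIs, 241 and 311 at 2-fold, 699 and 735 with 2 Gad UMIs and no Hox UMI, and 687 and 743 with 2 Gad UMIs and 4 neuron genes. With 2 Gad UMIs 828 were lower. Stricter cells and minima leave fewer genes measured. Ratios against Slc17a6 neurons were reversed in 0 cases under 3 alternatives, but many moved. With at least 2 Gad UMIs 19 moved and 18 were the same, after thinning 13 and 17, and with called doublets kept 4 and 35.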
